A study of Mus musculus with 8 samples.

Results

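The epidermal growth factor (EGF) receptor family and its ligands were followed through 9 genes in pancreata of WT and cKO mice given saline or made pancreatitic with a fatty acid and ethanol. The genes were the ligands *Areg*, *Ereg*, *Btc*, *Hbegf*, and *Tgfa*, the receptors *Egfr*, *Erbb2*, and *Erbb3*, and the inhibitor *Errfi1*, taken by name from the 48709 genes in each file. Each of the 9 names was found in all 8 libraries. cKO mice carry *Pfkfb3* fl/fl, a line made in C57BL/6J, and *Pdx1*-Cre, whose strain is not given in the sources used here, so that *Pfkfb3*, which encodes a regulator of glycolysis, is deleted in cells of the *Pdx1* lineage. That lineage takes in acinar, duct, and islet cells, while immune cells, fibroblasts, and vessels keep the gene. WT mice were purchased, their strain is not given in the sources used here, and no source calls them littermates, so genotype and origin cannot be told apart.

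All mice were 8-week-old males, and the pancreas was taken at 24 h. FAEE-SAP is severe acute pancreatitis brought on by i.p. palmitoleic acid with ethanol, which together form fatty acid ethyl esters. Mice were fasted beforehand. The FAEE-SAP mice also received i.p. saline just before, and buprenorphine with, the injections, and no source says that the saline mice received buprenorphine. The 4 groups were WT saline, WT FAEE-SAP, cKO saline, and cKO FAEE-SAP, with 2 libraries each, described as biological replicates. Libraries held 22.9 to 37.7 M reads, a depth worked out from the deposited values. *Pfkfb3* itself ranged from 1.69 to 3.21 scaled RPKM in the WT libraries and from 0.880 to 2.82 in the cKO libraries, and a level over the whole gene in whole tissue does not test the deletion of some of its exons in some of its cells. The tissue label was checked against acinar markers, which stood at 25709 to 133821 scaled RPKM when summed over 8 genes.

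Ligands of the EGF family are made as membrane-bound precursors, and metalloproteases of the ADAM family release them from the cell surface. A ligand joins receptors into pairs, whose kinase domains then phosphorylate the receptor tails and start the Ras to ERK, PI3 kinase to AKT, and STAT3 pathways. *Erbb2* encodes a receptor with no known ligand of its own, and *Erbb3* encodes one with a weak kinase that signals through a partner and binds PI3 kinase well. In the pancreas, the EGF receptor is known for its part in the change of acinar cells toward a duct-like state during pancreatitis.

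Levels are given as scaled RPKM, the deposited reads per kilobase of exon and per unit of library depth after division by 1 factor per library. The factor is the median ratio to the geometric mean over genes, and it ranged from 0.621 to 2.02, highest in the 2 WT FAEE-SAP libraries. Because the unit is per length, levels can be set side by side between genes. Values for a group are given for replicate 1 and then replicate 2, and reads are those worked out from RPKM, gene length, and library total.

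Amphiregulin and epiregulin, the products of *Areg* and *Ereg*, were at or near the limit of detection. *Areg* (chromosome 5, 91139599 to 91148432, plus strand, GRCm38) was listed at 0 in 7 of 8 libraries and at 0.028 scaled RPKM, 1 read, in cKO FAEE-SAP replicate 1. Its promoter is shown because the gene was near 0 at this depth and the sequence holds the cAMP response element that is known to drive this gene in other epithelia. Capitals mark that element, TGACGTCA, and a TATA box, TATAAA, in the 250 bases before the start that RefSeq gives on GRCm38.p6 (chr5:91139349-91139598, plus strand).
Areg: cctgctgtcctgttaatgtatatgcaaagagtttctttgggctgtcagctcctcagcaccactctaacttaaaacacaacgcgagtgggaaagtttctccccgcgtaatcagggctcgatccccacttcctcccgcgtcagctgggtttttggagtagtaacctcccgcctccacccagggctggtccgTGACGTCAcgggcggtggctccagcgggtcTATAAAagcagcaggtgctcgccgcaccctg
The response element began 61 bases and the TATA box 31 bases before the start of transcription. *Ereg* (chromosome 5, 91074622 to 91093646, plus strand) had 0 and 1 reads in WT saline, 4 and 3 in WT FAEE-SAP, 4 and 5 in cKO saline, and 13 and 1 in cKO FAEE-SAP. The highest *Ereg* value, 0.109 scaled RPKM, and one of the lowest, 0.008, thus came from the same group. For *Areg*, 3 reads, the limit set here for a count of 0, correspond to 0.0654 to 0.108 deposited RPKM, depending on the library. The 1 read seen lies below this.

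Betacellulin, encoded by *Btc* (chromosome 5, 91357261 to 91402994, minus strand), binds both the EGF receptor and ERBB4. Its levels were 0.289 and 0.131 scaled RPKM in WT saline, 0.162 and 0.126 in WT FAEE-SAP, 0.198 and 0.254 in cKO saline, and 0.276 and 0.220 in cKO FAEE-SAP. The 4 groups rested on 14 to 36 reads per library, and neighbors in the order of the group means overlapped throughout. *Areg*, *Ereg*, and *Btc* stayed below the minimum for testing, a deposited RPKM of at least 0.5 in at least 2 libraries of a comparison, and are described by their values only.

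*Hbegf* (chromosome 18, minus strand) encodes heparin-binding EGF-like growth factor. Its level was 0.122 and 0.142 scaled RPKM in WT saline and 0.290 and 0.612 in WT FAEE-SAP. In cKO it was 0.198 and 0.363 with saline and 0.204 and 0.377 with FAEE-SAP. Both WT FAEE-SAP libraries thus lay above both WT saline libraries, whereas the 2 cKO groups covered almost the same range. About 12 and 16 reads lay behind the WT saline values and about 65 and 187 behind those of WT FAEE-SAP.

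*Tgfa* (chromosome 6, 86195223 to 86275719, plus strand) encodes TGF-α, and it was the highest of the 5 member ligands in 8 of 8 libraries. It stood at 1.39 and 1.27 scaled RPKM in WT saline and at 0.767 and 0.844 in WT FAEE-SAP. The cKO libraries gave 1.19 and 1.06 with saline and 1.30 and 0.736 with FAEE-SAP. WT saline was highest and WT FAEE-SAP lowest in the order of group means, and the cKO FAEE-SAP libraries spread from below the WT FAEE-SAP libraries to above both cKO saline libraries.

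Among the receptors, *Egfr* (chromosome 11, 16752203 to 16918158, plus strand) moved least between groups. In WT it measured 0.748 and 0.709 scaled RPKM with saline and 0.879 and 1.01 with FAEE-SAP. In cKO it measured 0.787 and 1.15 with saline and 0.767 and 1.10 with FAEE-SAP. The means of cKO saline, WT FAEE-SAP, and cKO FAEE-SAP were neighbors whose libraries overlapped, and WT saline lay below all 6 other libraries.

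*Erbb2* (chromosome 11, 98412470 to 98437716, plus strand) gave 0.753 and 0.470 scaled RPKM in WT saline and 1.69 and 1.87 in WT FAEE-SAP. In cKO it gave 0.581 and 1.09 with saline and 0.731 and 1.31 with FAEE-SAP. Both WT FAEE-SAP libraries were higher than the 6 others, which overlapped among themselves. The stretch before its start is shown because *Erbb2* was one of the 2 members called differentially expressed, and it held none of the motifs searched (chr11:98412234-98412483, plus strand, GRCm38.p6, RefSeq).
Erbb2: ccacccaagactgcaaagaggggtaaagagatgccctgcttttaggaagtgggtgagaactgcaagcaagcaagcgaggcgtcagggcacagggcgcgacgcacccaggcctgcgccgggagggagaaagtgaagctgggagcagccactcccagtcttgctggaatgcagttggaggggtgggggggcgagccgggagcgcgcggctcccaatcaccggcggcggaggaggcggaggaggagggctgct

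*Erbb3* (chromosome 10, 128567523 to 128589652, minus strand) was the most abundant receptor of the 3 in 8 of 8 libraries and the receptor with the widest range. Its levels were 3.16 and 1.36 scaled RPKM in WT saline and 9.68 and 20.5 in WT FAEE-SAP. The cKO levels were 1.69 and 3.41 with saline and 1.31 and 4.48 with FAEE-SAP. The lower of the WT FAEE-SAP libraries, with about 2703 reads, was thus above every library of the other 3 groups, the highest of which had about 812 reads. In the order of group means, WT FAEE-SAP was 5.22-fold above the next group, cKO FAEE-SAP, and the remaining 3 groups overlapped as neighbors.

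*Errfi1* (chromosome 4, 150853919 to 150868892, plus strand) encodes MIG6, a protein that binds the kinase domain of these receptors and shuts it off, and is itself made in response to growth factor and stress signals. It was above *Erbb3* in 7 of 8 libraries. It reached 11.5 and 4.93 scaled RPKM in WT saline, 8.50 and 26.6 in WT FAEE-SAP, 2.66 and 16.5 in cKO saline, and 10.9 and 13.8 in cKO FAEE-SAP. The libraries of cKO saline, at about 223 and 1236 reads, differed more from each other than any 2 group means did, and all neighboring groups overlapped. Of the 2 *Errfi1* starts in RefSeq, the one inside the gene lies next to the first exon of a shorter transcript. It is shown for comparison with *Areg*, since it holds the same pair of motifs (chr4:150854820-150855069, plus strand, GRCm38.p6).
Errfi1: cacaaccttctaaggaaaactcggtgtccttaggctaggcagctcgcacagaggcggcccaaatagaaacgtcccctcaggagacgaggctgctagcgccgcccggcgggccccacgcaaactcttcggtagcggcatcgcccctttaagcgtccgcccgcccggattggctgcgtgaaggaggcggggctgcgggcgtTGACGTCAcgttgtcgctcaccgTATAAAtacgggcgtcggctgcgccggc
The response element began 51 bases and the TATA box 28 bases before that start. TGACGTCA, which reads the same on both strands, occurred in 1.79% of the 32851 RefSeq promoters, taken as 250 bases before to 50 bases after each start. TATAAA, searched on the strand of the gene, occurred in 8.32% of them, and the AP-1 site, TGACTCA or TGAGTCA on either strand, in 5.20%. Promoters of 6 of the 9 members were in the table, and only *Areg* and *Errfi1* held any of these letters. *Areg* had the lowest level of the 9 members and *Errfi1* the highest in most libraries, so the same letters stood before genes of very different level.

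**Figure D1:**
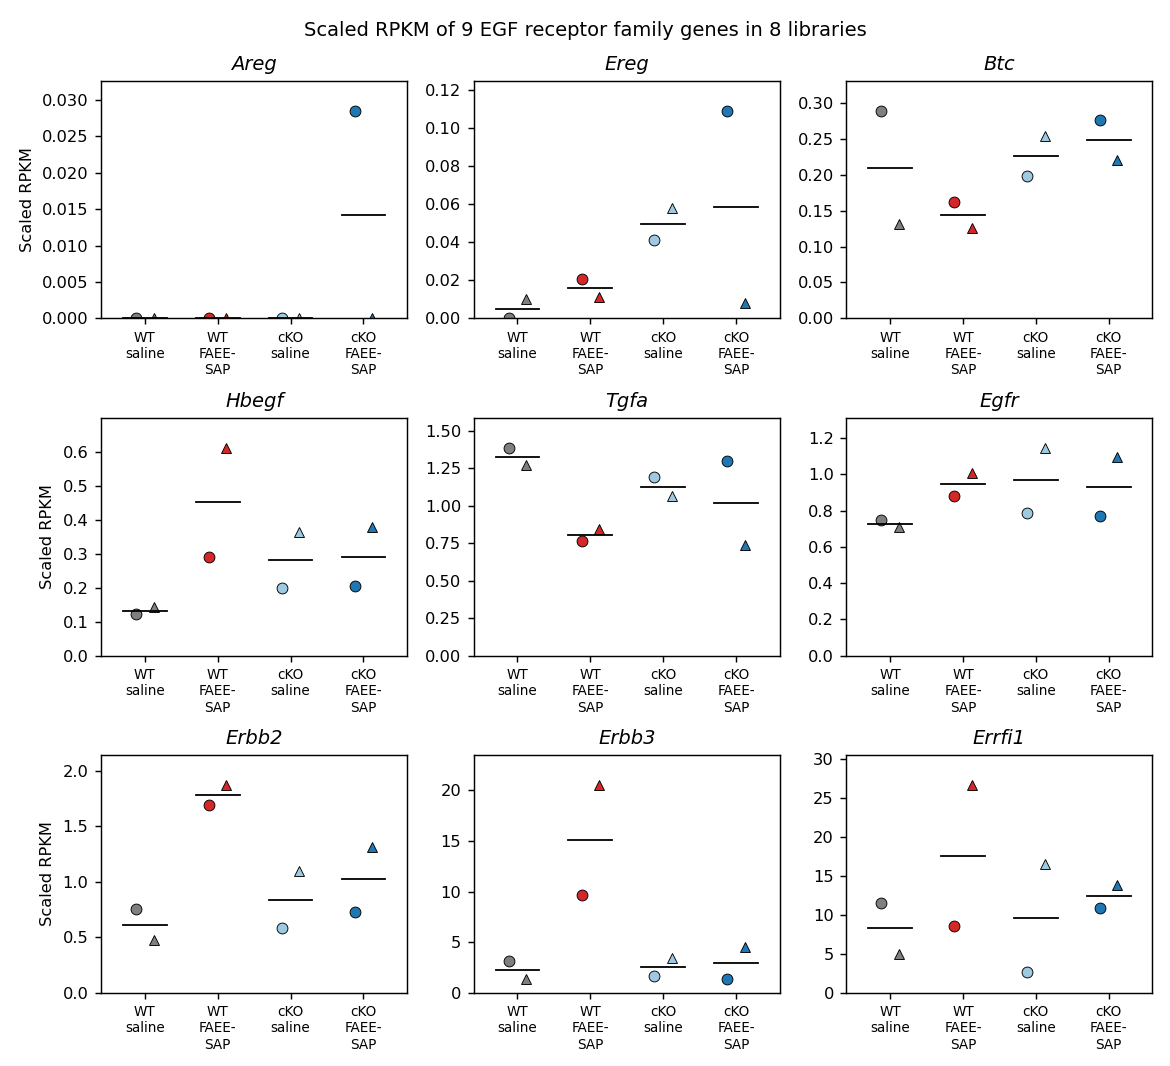
Scaled RPKM (vertical axis, linear from 0, a separate scale for each gene) of the 9 genes in the 4 groups on the horizontal axis; circles are replicate 1, triangles replicate 2, and black bars the mean of 2 libraries. For *Erbb2* and *Erbb3* both WT FAEE-SAP points lie above all other points, for *Errfi1* the libraries of WT FAEE-SAP (8.50 and 26.6) and of cKO saline (2.66 and 16.5) spread widely, and *Areg* has 1 point above 0.

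FAEE-SAP against saline in WT asks which of these genes differ in the injured pancreas. Of the 6 members tested, *Erbb3* and *Erbb2* were called higher and none was called lower, at an adjusted p-value under 0.05 and at least 2-fold, where 6.93% of the 10894 genes tested were called, 3.08% of them as higher. *Erbb3* rose by 2.71 on the log2 scale (SE 0.50, adjusted p = 0.0358, limma). *Erbb2* rose by 1.45 (SE 0.28, adjusted p = 0.0409, limma). *Erbb2* and *Hbegf* reached the testing minimum only through the FAEE-SAP libraries. Fold changes were taken after adding 0.1 to each scaled RPKM, so those of low genes are understated, and the libraries of each comparison were scaled on their own.

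The remaining 4 members did not pass the test in WT. *Hbegf* was at 1.25 (SE 0.38, adjusted p = 0.104, limma) and *Tgfa* at -0.68 (SE 0.22, adjusted p = 0.122, limma), and for both the scaled values of the 2 groups did not overlap. Without scaling, as deposited, *Tgfa* was at 0.55, so its direction rested on the scaling. *Egfr* was at 0.33 (SE 0.23), again without overlap, and *Errfi1* at 0.98 (SE 0.62) with overlap. Groups that did not overlap were common over all genes tested, at 29.3% higher and 29.5% lower.

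The calls of both receptors depended on individual libraries. A fit that leaves out a library has 1 library in that group, which is assumed to vary like the other group. *Erbb3* kept its call only without WT saline replicate 1, and its adjusted p was 0.0606 without WT saline replicate 2, 0.0612 without WT FAEE-SAP replicate 1, and 0.166 without WT FAEE-SAP replicate 2 (limma), with log2 fold changes of 2.11, 3.28, and 2.20. *Erbb2* lost its call without any of the 4 libraries, at adjusted p-values of 0.0645 and 0.126 without WT saline replicate 1 and 2 and of 0.105 and 0.196 without WT FAEE-SAP replicate 1 and 2 (limma). Its log2 fold change stayed between 1.14 and 1.78. Both calls were also lost with no filter on low genes (adjusted p 0.0828 and 0.0876), and that of *Erbb2* with all 8 libraries in 1 model (0.0513) and with a pseudocount of 1, where its change of 0.87 was under 2-fold.

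In cKO mice, the same contrast moved the receptors little. Of 5 members tested, 0 were called, 0 had an unadjusted p under 0.05 in limma, and voom on the reads worked out also called 0, where limma called 0.0531% of the 9423 genes tested. The log2 fold change was 0.05 (SE 0.63) for *Erbb3*, 0.28 (SE 0.39) for *Erbb2*, -0.02 (SE 0.27) for *Egfr*, -0.15 (SE 0.31) for *Tgfa*, and 0.89 (SE 0.86) for *Errfi1*. The libraries of saline and FAEE-SAP overlapped for each of the 5, while 21.8% of the genes tested were higher and 21.4% lower without overlap. The standard errors of *Erbb3* and *Errfi1* leave room for changes of more than 2-fold in cKO.

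With FAEE-SAP, cKO was compared with WT to ask how the deletion bears on the injured pancreas. The call was met by 0 of 6 members in limma and 0 in voom, where 1.27% of the 11008 genes tested were called, 0.409% lower and 0.863% higher. An unadjusted p under 0.05 was found for 2 members, beside 19.5% of the genes tested. *Erbb3* was at -2.51 (SE 0.63, adjusted p = 0.131, limma) and *Erbb2* at -0.82 (SE 0.33, adjusted p = 0.249, limma), with both cKO libraries below both WT libraries for each, as in 25.7% of the genes tested. *Hbegf* at -0.51 (SE 0.45), *Errfi1* at -0.31 (SE 0.53), *Egfr* at -0.04 (SE 0.28), and *Tgfa* at 0.25 (SE 0.32) overlapped, so 0 members were higher in cKO without overlap, beside 26.1% of the genes tested. *Erbb3* passed in 1 of the fits that left out a library, at an adjusted p of 0.0423 and a log2 fold change of -3.39 without cKO FAEE-SAP replicate 2 (limma), the library with the higher cKO value, a fit whose spread comes from the WT libraries alone.

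The response to FAEE-SAP was then compared between genotypes over all 8 libraries, as the interaction of genotype and treatment. None of 6 members was called in limma or voom, and 0.0719% of the 11133 genes tested were called, 0.0449% higher and 0.0269% lower. An unadjusted p under 0.05 was found for 1 member, beside 12.6% of the genes tested. *Erbb3* had the largest value of the 6, a cKO response minus WT response of -2.68 on the log2 scale (SE 0.95, unadjusted p = 0.0250, adjusted p = 0.338, limma), followed by *Erbb2* at -1.16 (SE 0.52, adjusted p = 0.423) and *Hbegf* at -1.15 (SE 0.59, adjusted p = 0.473). In this comparison and between genotypes with FAEE-SAP, *Hbegf* reached the testing minimum only through the 2 WT FAEE-SAP libraries, where it is high. A difference between the genotypes in the response of these genes was therefore not shown at this number of libraries.

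With saline, 0 of 5 members tested were called in limma and in voom, 0 had an unadjusted p under 0.05, and 0% of the 8715 genes tested were called, although 187 of these genes had an unadjusted p under 0.05. The values were 0.33 (SE 0.37) for *Erbb2*, 0.31 (SE 0.25) for *Egfr*, 0.17 (SE 0.49) for *Erbb3*, -0.20 (SE 0.92) for *Errfi1*, and -0.24 (SE 0.17) for *Tgfa*. *Egfr* was higher and *Tgfa* lower in both cKO libraries than in both WT libraries, as were 13.7% and 14.2% of the genes tested. The comparisons share libraries, since each group enters more than one of them.

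**Figure D2:**
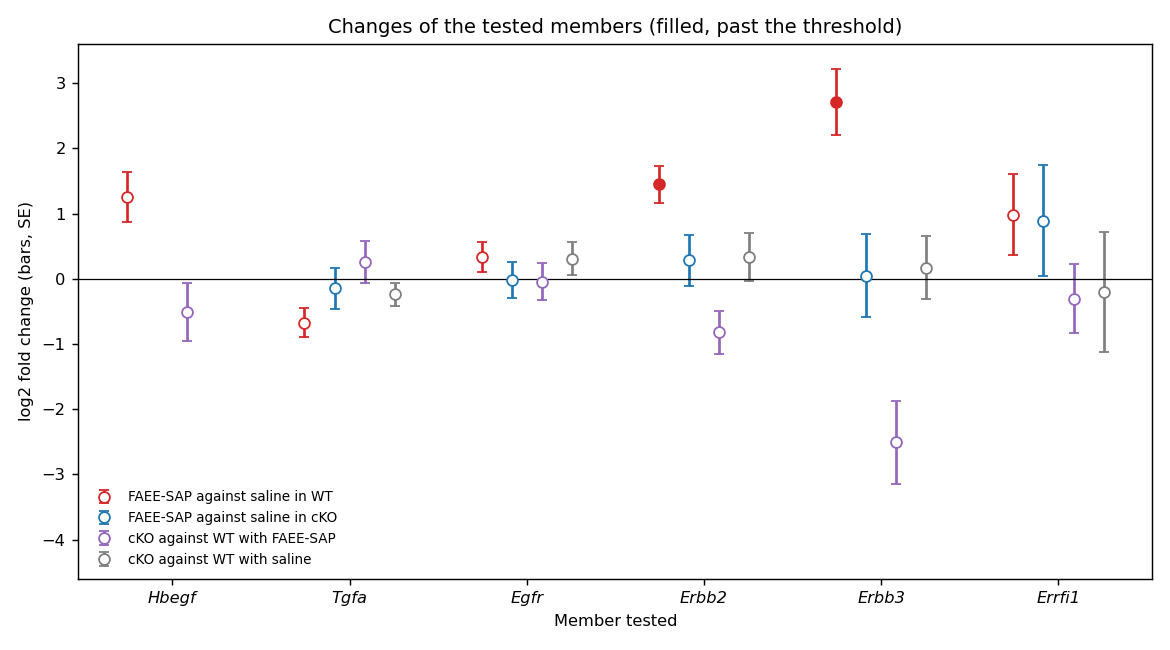
Log2 fold change (vertical axis) of the 6 members tested (horizontal axis) in the 4 comparisons between groups of 2 libraries; bars are the SE from limma and filled points passed the threshold. *Erbb3* and *Erbb2* in WT are filled at 2.71 and 1.45, *Erbb3* lies at -2.51 in cKO against WT with FAEE-SAP, and *Hbegf* was not tested in 2 of the comparisons.

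Ratios of 2 genes within a library need no scaling, and they set the receptors against each other directly. *Erbb3* over *Egfr* was 4.23 and 1.92 in WT saline, 11.0 and 20.4 in WT FAEE-SAP, 2.15 and 2.98 in cKO saline, and 1.71 and 4.09 in cKO FAEE-SAP. *Erbb2* over *Egfr* was 1.01 and 0.664 in WT saline, 1.92 and 1.86 in WT FAEE-SAP, 0.739 and 0.955 in cKO saline, and 0.953 and 1.20 in cKO FAEE-SAP. For both ratios the WT FAEE-SAP libraries lay above the 6 others. *Erbb3* over *Erbb2* was also highest there, at 5.74 and 11.0 against 1.80 to 4.20 in the other libraries, and this difference was not tested.

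Ligands gave the opposite picture for *Egf*, a ligand gene outside the 9 that is made in the pancreas and other glands. *Egf* over *Tgfa* was 3.09 and 2.88 in WT saline and 0.636 and 0.687 in WT FAEE-SAP, and it was 4.10 and 4.29 in cKO saline and 1.62 and 2.85 in cKO FAEE-SAP. *Egf* was above *Tgfa* in 6 of 8 libraries, with both exceptions in WT FAEE-SAP. *Hbegf* over *Tgfa* went the other way in WT, from 0.0882 and 0.112 with saline to 0.379 and 0.725 with FAEE-SAP. The cKO ratios of this pair, 0.166 and 0.342 with saline and 0.158 and 0.513 with FAEE-SAP, overlapped.

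**Figure D3:**
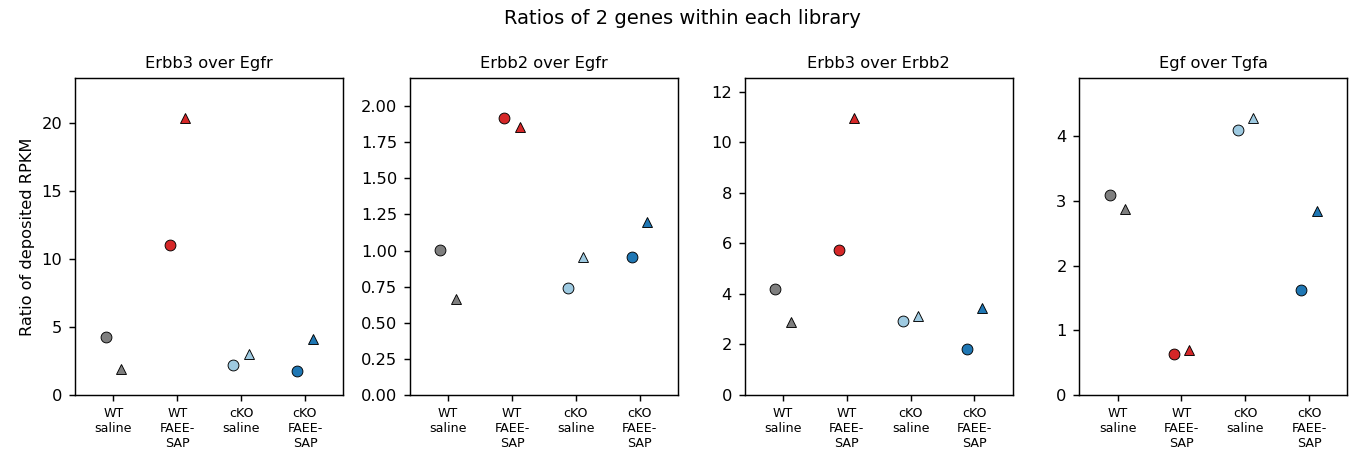
Ratio of the deposited RPKM of 2 genes within each library (vertical axis, linear from 0) for 4 pairs, in the 4 groups on the horizontal axis; circles are replicate 1 and triangles replicate 2. The WT FAEE-SAP libraries are highest for *Erbb3* over *Egfr* (11.0 and 20.4), *Erbb2* over *Egfr*, and *Erbb3* over *Erbb2*, and lowest for *Egf* over *Tgfa* (0.636 and 0.687).

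Of the other ligands and the receptor ERBB4, *Egf* alone reached the testing minimum. Its level was 4.28 and 3.65 scaled RPKM in WT saline, 0.488 and 0.579 in WT FAEE-SAP, 4.87 and 4.55 in cKO saline, and 2.10 and 2.10 in cKO FAEE-SAP. *Egf* was called lower in WT, where it fell by 2.73 on the log2 scale (SE 0.23, adjusted p = 0.00428, limma), a call that held under all 16 alternatives. In cKO it was at -1.09 (adjusted p = 0.238, limma) and was not called. With FAEE-SAP, it was called higher in cKO than in WT, by 1.84 (SE 0.24, adjusted p = 0.0350, limma), a call lost without any of the 4 libraries, at adjusted p-values of 0.0761 to 0.208. The difference between genotypes in its response was 1.55 (adjusted p = 0.104, limma). *Epgn*, *Nrg1* to *Nrg4*, which encode epigen and the neuregulins that bind ERBB3 and ERBB4, and *Erbb4* stood at 0.101 scaled RPKM or less in every library, and *Epgn* was listed at 0 in all 8.

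The ligand shedding list holds ADAM proteases, the inactive rhomboid proteins that carry ADAM17 to the surface, and their partners. In WT, 2 of its 10 genes tested were called higher with FAEE-SAP and 0 lower, beside 3.08% and 3.86% of all genes tested, and its median log2 fold change was 0.42 beside 0.02 over all genes. *Rhbdf2*, one of the inactive rhomboids, measured 1.05 and 0.878 scaled RPKM in WT saline and 3.29 and 6.45 in WT FAEE-SAP, a log2 fold change of 2.17 (adjusted p = 0.0264, limma). *Adam9* measured 3.54 and 3.86 against 7.61 and 9.33, a log2 fold change of 1.17 (adjusted p = 0.0299, limma). The call of *Adam9* was lost without any of the 4 libraries (adjusted p 0.0588 to 0.139), and that of *Rhbdf2* on leaving out any library other than WT FAEE-SAP replicate 1 (0.0630 to 0.0851).

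Adaptors and kinases downstream of the receptors showed 2 genes called higher and 0 lower of 27 tested in WT (3.08% and 3.86% over all genes), with a median of 0.36. *Stat3*, a transcription factor that the receptors and cytokines activate, measured 3.13 and 2.38 scaled RPKM in WT saline and 6.79 and 13.5 in WT FAEE-SAP, a log2 fold change of 1.77 (adjusted p = 0.0429, limma). *Src*, a kinase that acts with the receptors, measured 3.31 and 2.14 against 6.41 and 10.1, a log2 fold change of 1.56 (adjusted p = 0.0442, limma). The call of *Src* was lost without any of the 4 libraries (adjusted p 0.0647 to 0.179), and that of *Stat3* on leaving out any library other than WT FAEE-SAP replicate 1 (0.0903 to 0.137).

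Among genes of receptor turnover and inhibition, 1 of 24 tested was called higher in WT, near the 3.08% of all genes, and 0 lower (3.86%), with a median of 0.11. *Ptpn2*, a phosphatase that acts on the EGF receptor and on STAT proteins, measured 1.30 and 1.51 scaled RPKM in WT saline and 3.65 and 5.49 in WT FAEE-SAP. Its log2 fold change was 1.61 (adjusted p = 0.0271, limma), a call lost on leaving out any library other than WT FAEE-SAP replicate 1 (adjusted p 0.0578 to 0.110). In cKO it measured 1.35 and 1.21 with saline and 1.22 and 1.14 with FAEE-SAP. It was the only gene of this list called between genotypes with FAEE-SAP, with a value in cKO against WT of -1.88 on the log2 scale (SE 0.27, adjusted p = 0.0450, limma), and each of the 4 libraries was needed for that call (adjusted p 0.0818 to 0.252).

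ERK-responsive genes, which are transcribed soon after ERK is activated, had 3 of 17 tested called higher in WT and 0 lower, where 3.08% and 3.86% of all genes were called, with a median of 0.47. *Ier3*, an immediate early gene that limits cell death, measured 0.813 and 0.934 scaled RPKM in WT saline and 6.93 and 6.74 in WT FAEE-SAP, a rise of 2.86 on the log2 scale (SE 0.20, adjusted p = 0.00298, limma) that was called under all 16 alternatives. *Hmga1*, a chromatin protein of growing cells, measured 3.96 and 3.27 against 7.76 and 8.69, a log2 fold change of 1.17 (adjusted p = 0.0307, limma) whose call was lost without any of the 4 libraries (adjusted p 0.0732 to 0.144). *Fosl1*, a subunit of AP-1, measured 0.0567 and 0 against 0.303 and 0.379 and reached the minimum only through the FAEE-SAP libraries. Its log2 fold change of 2.0 (adjusted p = 0.0394, limma) depended on the pseudocount, at 0.46 with 1 and 3.92 with 0.01. Its call was lost with both, the first being under 2-fold and the second at an adjusted p of 0.0983 (limma). *Fosl1* was tested in 13 of the 16 alternatives and called in 7 of these.

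Other settings ended some of these calls as well. With no filter, *Egf* and *Ier3* alone kept their calls in WT, and the adjusted p of the other 7 genes was 0.0584 to 0.0910. *Src* and *Stat3* were also lost with quantile normalization (0.0506 and 0.0514) and without the intensity trend (0.0621 and 0.0600), and *Fosl1* with quantile normalization (0.131) and in voom (0.0535). Between genotypes with FAEE-SAP, *Ptpn2* was lost with no filter, quantile normalization, a pseudocount of 1, no trend, and voom (0.0520 to 0.150), and *Egf* with no filter (0.148), no trend (0.0506), and as deposited, where its change of 0.95 was under 2-fold.

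In cKO, 0 genes of these 5 lists were called with FAEE-SAP in limma, beside 0.0531% of all genes tested. An unadjusted p under 0.05 was found for 3 of 10 shedding genes, 2 of 13 ERK-responsive genes, *Egf*, 0 of 26 adaptors, and 0 of 21 turnover genes, beside 9.42% of all genes tested. Medians were 0.37 for shedding, 0.02 for adaptors, -0.07 for turnover, and 0.53 for ERK-responsive genes, beside -0.01 over all genes. The largest changes, none of them called, were 1.45 for *Adam8*, -0.87 for *Pik3r1*, 0.48 for *Ptpn1*, and 1.53 for *Emp1*. *Adam8*, one of the 3 shedding genes counted above, reached the minimum only through the FAEE-SAP libraries, at 0.137 and 0.103 deposited RPKM in cKO saline. *Frmd8*, another of the 3, also needed the FAEE-SAP libraries to reach it. Scaled within this comparison, *Frmd8* averaged 0.553 RPKM in cKO saline and 0.863 in cKO FAEE-SAP. *Ier3*, at 0.528 and 2.20 scaled RPKM with saline and 3.31 and 1.82 with FAEE-SAP, overlapped in cKO.

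Between genotypes with FAEE-SAP, *Egf* and *Ptpn2* were the 2 genes of the 5 lists that were called, beside 1.27% of the 11008 genes tested. The lists had 1, 10, 27, 24, and 17 genes tested, in the order of other ligands, shedding, adaptors, turnover, and ERK-responsive genes. Medians were -0.16 for shedding, -0.25 for adaptors, -0.09 for turnover, and -0.16 for ERK-responsive genes, beside -0.01 over all genes. The largest changes in the lists without a call were -1.91 for *Rhbdf2* (adjusted p = 0.0860), -1.63 for *Grb7* (adjusted p = 0.180), and -1.46 for *Ier3* (adjusted p = 0.101), all from limma. With saline and in the interaction, 0 genes of the lists were called, beside 0% and 0.0719% of all genes tested. With saline the largest value was 0.75 for *Spry2*, which stands in both the turnover and the ERK-responsive list, and in the interaction the largest of each list were -1.75 for *Ier3*, -1.72 for *Ptpn2*, -1.66 for *Src*, -1.60 for *Rhbdf2*, and 1.55 for *Egf*.

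**Figure D4:**
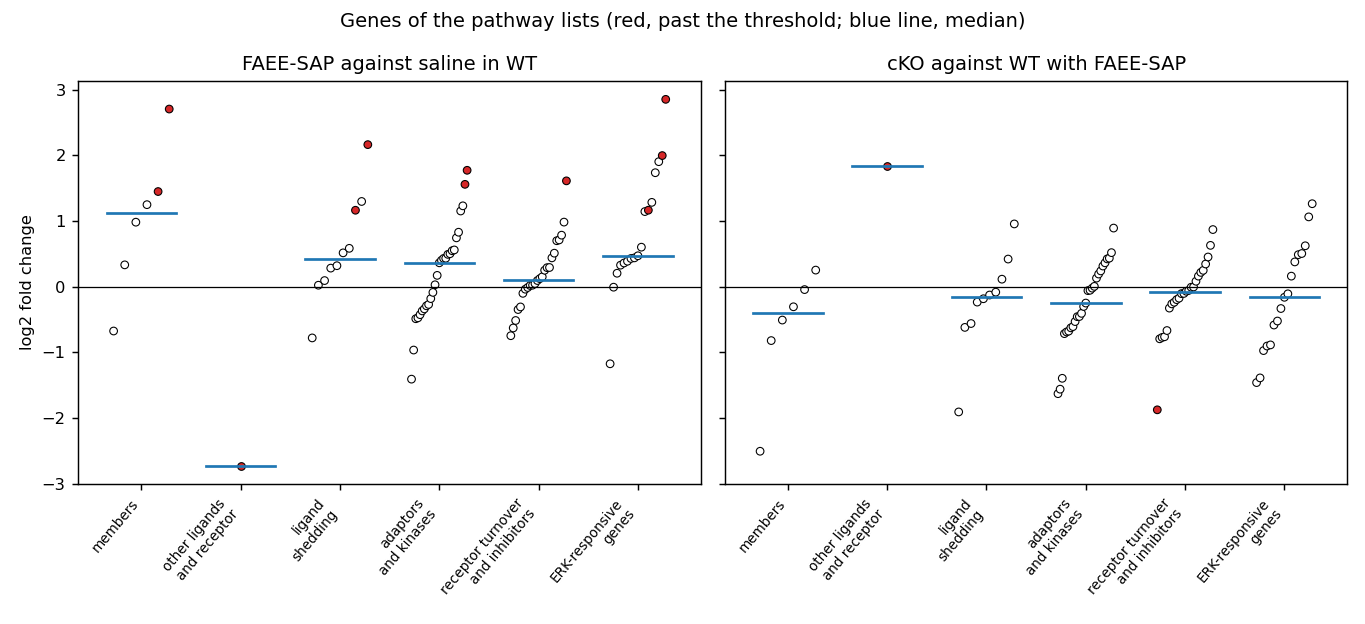
Log2 fold change (vertical axis) of every tested gene of the 6 lists (horizontal axis), for FAEE-SAP against saline in WT (left) and cKO against WT with FAEE-SAP (right); each point is a gene, red points passed the threshold, and blue lines are medians. In WT 8 genes outside the members are red above 0 and *Egf* below, and in the right panel *Egf* (1.84) and *Ptpn2* (-1.88) are red.

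Markers of the cell types in the tissue moved with the same contrasts. Summed over 8 genes, acinar markers stood at 97749 to 108281 scaled RPKM in WT saline and 25709 to 30149 in WT FAEE-SAP. In WT, 8 of 8 were called lower, beside 3.86% of all genes tested. The cKO sums were 118025 to 133821 with saline and 61385 to 64858 with FAEE-SAP. Neutrophil markers, summed over 5 genes, stood at 1.01 to 1.69 in WT saline and 46.6 to 53.4 in WT FAEE-SAP, and at 1.14 to 2.76 and 11.3 to 18.4 in cKO. These sums were led by *S100a8* and *S100a9*. With FAEE-SAP, *S100a8*, *S100a9*, and *Cxcr2* were lower in cKO than in WT without overlap, and *S100a8* alone was called, beside 0.409% of all genes tested. *Csf3r* overlapped, at 0.877 and 0.818 in WT and 1.06 and 0.560 in cKO, and *Mpo* stood at 0.101 and 0.155 in cKO FAEE-SAP. The 4 neutrophil markers tested were called higher in WT, beside 3.08% of all genes tested. They reached the testing minimum only through the FAEE-SAP libraries, and *Mpo* was listed at 0 in both WT FAEE-SAP libraries. Of the markers of duct cells, which are known to express ERBB receptors, 0 of 3 were called in WT, beside 6.93% of all genes tested. Their sums, led by *Krt19*, were 8.60 to 10.7 in WT saline and 13.1 to 13.9 in WT FAEE-SAP. The part of these shifts in the values of *Erbb3*, *Erbb2*, and *Egf* was not tested, and in whole tissue fewer cells of a type and less RNA per cell cannot be told apart.

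Macrophage markers summed to 18.4 to 24.9 scaled RPKM in WT saline and 19.5 to 22.9 in WT FAEE-SAP. In cKO they summed to 19.1 to 20.9 with saline and 33.3 to 38.8 with FAEE-SAP. Islet markers summed to 257 to 304 in WT saline, 151 to 204 in WT FAEE-SAP, 282 to 356 in cKO saline, and 398 to 405 in cKO FAEE-SAP. In WT, 2 of 5 were called lower, beside 3.86% of all genes tested. With FAEE-SAP, 3 of 5 were called higher in cKO than in WT, beside 0.863% of all genes tested. Mesothelial markers summed to 2.04 to 2.73 in WT saline and 0.907 to 0.961 in WT FAEE-SAP, and 1 of the 5 was tested. Sums of lymphocyte (6.68 to 15.4 and 8.57 to 11.6) and fat markers (11.8 to 28.2 and 27.5 to 42.3) overlapped between WT saline and WT FAEE-SAP. Those of endothelial markers in WT FAEE-SAP lay within the WT saline range of 10.2 to 12.8. Fibroblast markers summed to 52.7 to 59.7 in WT saline and 46.3 to 49.0 in WT FAEE-SAP. This sum was led by *Dcn*, at 48.1 and 50.7 against 40.4 and 40.7. *Pdgfra* was higher without overlap (0.729 and 0.982 against 1.48 and 1.05), and *Col1a1*, *Col1a2*, and *Lum* overlapped. No marker of macrophages, lymphocytes, fibroblasts, mesothelium, endothelium, or fat was called in WT, beside 6.93% of all genes tested.

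For each member that passed the minimum over all 8 libraries, the 2 genes with the most similar profile among 11133 were named by Pearson correlation of log2 values, as a description over 8 libraries that share treatment, scaling, and the acinar shift. *Erbb3* was closest to *Sbds* (r = 0.997) and *Gpr107* (r = 0.992), and *Erbb2* to *Abhd4* (r = 0.989) and *Ap2a2* (r = 0.987). *Sbds*, a ribosome assembly factor, ran from 5.13 to 7.66 scaled RPKM outside WT FAEE-SAP and at 9.96 and 12.1 within it, a narrower span than that of *Erbb3*. *Errfi1* was closest to *Dusp1* (r = 0.968), a phosphatase of MAP kinases, and *Ddit4* (r = 0.967), a stress-induced inhibitor of mTOR. Like *Errfi1*, *Ddit4* was lowest in cKO saline replicate 1 (6.76 scaled RPKM) and highest in WT FAEE-SAP replicate 2 (108), and it differed between the 2 cKO saline libraries (48.3 in replicate 2). *Hbegf* was closest to *Fndc3b* (r = 0.965) and *Brap* (r = 0.964), *Tgfa* to *Hsf2* (r = 0.971) and *Tug1* (r = 0.934), and *Egfr* to *Wdr60* (r = 0.961) and *Gdap2* (r = 0.945).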

How the data were processed

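Bulk RNA-Seq libraries of pancreas, 2 per group, were assigned to the 4 groups by their labels. The authors prepared directional paired-end libraries, filtered reads with fastp, mapped them to Ensembl GRCm38.p6 with CLC Genomics Workbench, and deposited RPKM per gene; how RPKM was computed, and whether strand was used, is not given in the sources used here. Exons of *Ereg* (3.42% of their length), *Tgfa* (1.82%), and *Erbb2* (0.173%) are shared with genes on the opposite strand in GENCODE vM21.

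Library totals and reads were worked out from low RPKM values and GENCODE exonic lengths (46319 of 48709 genes matched, 95.1%). Between 84.1% and 85.5% of values under 20 reads came out whole within 0.1 reads, and summed reads were 100.3% to 105.7% of the totals, so reads are approximate. They cover counting error only.

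Genes with a deposited RPKM of at least 0.5 in at least 2 libraries of a comparison were scaled by the median of ratios and tested as log2(scaled RPKM + 0.1) by limma (version 3.58.1, R version 4.3.3, variance prior with an intensity trend). Benjamini-Hochberg adjustment ran over all genes tested. A gene was called at an adjusted p under 0.05 and at least 2-fold. P-values measure the spread between 2 libraries per group, or, where a library is left out, that of the complete groups alone.

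The members and gene lists were chosen with earlier results of these data known, so list counts are descriptions. Named were all members; up to 3 called genes per list, direction, and comparison, or the largest change where none was called; 2 similar genes per member; and the markers. A gene named in 1 comparison was also followed in others; *Sbds* and *Ddit4* were singled out after their values were seen. Alternatives covered scaling, filter, pseudocount, trend, a joint model, replicate number as a block, and leaving out each library. The fit was tested on simulated data. Figures used matplotlib 3.10.9.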

Additional observations from a re-analysis of the deposited data

How the results depend on the processing

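With 2 libraries per group, calls rested on few degrees of freedom, and low genes on few reads. The median of ratios set the scale: as deposited, the median of all genes shifted by 1.24 in WT, 0.57 in cKO, -0.91 between genotypes with FAEE-SAP, -0.25 with saline, and -0.63 in the interaction. *Erbb3* and *Erbb2* kept their direction in WT under all 16 alternatives (log2 fold changes 2.11 to 4.0 and 0.87 to 2.66).

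The count of members called in WT, 2, was 5 as deposited (with *Errfi1*, *Egfr*, and *Hbegf*), 1 with a pseudocount of 1, 1 with all 8 libraries in 1 model, 0 with no filter, and 0 to 1 when a library was left out. Between genotypes with FAEE-SAP it was 3 as deposited (*Erbb3*, *Erbb2*, *Hbegf*) and 0 to 1 when a library was left out, beside 0. It was 0 under every alternative run in cKO, with saline, and in the interaction. The counts of 5 and 3 members as deposited stood beside a shift of all genes. As deposited, 7270 of the 10894 genes tested were called in WT, 7184 of them higher. Between genotypes with FAEE-SAP, 4427 of 11008 were called, 4354 of them lower. Of the member values under alternatives, 379 kept direction and side of the threshold, 8 passed in addition, 13 no longer passed, and 26 changed sign.

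Signs that changed as deposited were *Tgfa* in WT (0.55), in cKO (0.41), between genotypes with FAEE-SAP (-0.63), and in the interaction (-0.14), *Egfr* in cKO (0.53), and *Erbb3* with saline (-0.085). None of these was called. Leaving out a library changed the sign in cKO of *Errfi1* (-0.40 to 2.19), *Erbb3* (-0.72 to 0.89), *Erbb2* (-0.11 to 0.69), *Egfr* (-0.26 to 0.23), and *Tgfa* (-0.50 to 0.28). With FAEE-SAP it changed that of *Errfi1* (-1.15 to 0.50), *Egfr* (-0.30 to 0.22), and *Tgfa* (-0.10 to 0.62), with saline that of *Errfi1* (-1.49 to 1.09) and *Erbb3* (-0.38 to 0.71), and in the interaction that of *Errfi1* (-1.43 to 1.17). The cause was not tested.

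Replicate numbers were not taken as pairs: deviations of same-numbered libraries correlated at -0.175 in WT, 0.450 in cKO, 0.313 with FAEE-SAP, and -0.395 with saline. With the replicate block, members called were 0 in WT (adjusted p 0.0636 for *Erbb3* and 0.0768 for *Erbb2*) and 1, *Erbb3* at an adjusted p of 0.0117, between genotypes with FAEE-SAP, and all genes called were 442, 52, 568, 0, and 0 in the order WT, cKO, FAEE-SAP, saline, and interaction. The block also ended the WT calls of *Adam9*, *Stat3*, *Src*, *Hmga1*, and *Fosl1* (adjusted p 0.0618 to 0.0846). With the numbers of the WT saline libraries exchanged, chosen after seeing the data, the block gave 822 calls in WT (2 members) and 0 with saline.

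All genes called were 755 in WT (7270 as deposited, of which 7184 higher and 86 lower, 259 with no filter, 97 to 491 without a library), 5 in cKO (15 as deposited, 15 with all 8 libraries in 1 model, 0 with no filter, 0 to 6 without a library), and 140 with FAEE-SAP (4427 as deposited, 73 higher and 4354 lower, 299 with all 8 libraries in 1 model, 80 with quantile normalization, 57 with no trend, 0 with no filter, 0 to 139 without a library). With saline 0 became 2 as deposited and 1 with quantile normalization. In the interaction 8 became 791 as deposited, 35 with a minimum of 2 RPKM, 25 with quantile normalization, 24 and 1 with pseudocounts of 1 and 0.01, 3 with no trend, 0 with no filter, and 0 to 4 without a library. voom on the reads worked out, also chosen after seeing the data, called 2 members in WT and 0 elsewhere.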
